A study of Rattus norvegicus with 10 samples.

Results

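The choroid plexus epithelium is the cell layer that secretes cerebrospinal fluid, and it was followed here through Ttr and the other genes of a set of 10 that mark it, in hypothalamic RNA of 10 male Wistar rats. All probe sets that the annotation of the Affymetrix Rat Genome 230 2.0 array assigns to 1 of these genes alone were taken. This gave 12 probe sets of 8 genes, among 31042 probe sets and 14217 genes named alone on the array. No probe set was assigned alone to Clic6, an intracellular chloride channel protein, or to Slc4a5, a sodium bicarbonate cotransporter, so that 2 of the 10 genes were not analysed here. A further probe set that the annotation shares between Ttr and the metallothionein genes Mt1 and Mt1f was not counted as Ttr.

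From 3 weeks of age all rats ate powdered feed for 2 days, and then either solid chow (C group, 5 rats) or powdered feed (P group, 5 rats) for 8 days, and the labels give their age at sampling as 4 weeks. Housing was arranged so that nothing but the feed could be chewed. The comparison asks what chewing solid feed does to gene expression in the hypothalamus at weaning. One array was hybridized per rat, and the rats are named Chow 1 to 5 and Powder 1 to 5 below.

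The choroid plexus hangs in the brain ventricles, including the third ventricle, whose lower walls are formed by the hypothalamus. Its epithelial cells move water, ions and folate from blood to the cerebrospinal fluid and make transthyretin, the Ttr product, which carries thyroxine and binds the retinol-binding protein. In the brain Ttr is known above all as a choroid plexus gene, while several of the other genes used here are also active in other cells. The array read whole dissected tissue, in which fewer cells of a type and less RNA per cell cannot be told apart.

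The deposited values are log2 signals between 5.23 and 13.96, and the arrays correlated pairwise at 0.997 to 0.9991. The summarization used by the authors gives a probe set nearly the same value on every array where its probes share little signal. A probe set is called flat below when its standard deviation (SD) over the 10 rats was under 0.001, and varying when it was above 0.1. Flatness says that no shared probe signal was resolved, and does not show that the gene was silent or constant. Of all probe sets 28736 (92.6%) were flat and 1391 (4.48%) varied. Of the genes listed as hypothalamic, 9 peptide genes varied, with mean signals between percentile 52.4 (Crh) and 99.9 (Pmch) of all probe sets, and the regulator gene Nkx2-1 was flat. Such percentiles rank probe signals and do not compare RNA levels between genes.

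Ttr was the one gene of the set that differed strongly between rats. Its signal was 9.29, 7.18, 9.50, 7.54 and 7.86 in Chow 1 to 5 of the C group, against 8.74, 7.49, 8.36, 6.83 and 7.82 in Powder 1 to 5 of the P group. Chow 3 and Chow 1 were highest, Powder 4 was lowest, and both diets held high and low rats. The whole range was 2.67 on the log2 scale, which is 6.37-fold, and the range within a diet was 2.33 in the C group, against 1.90 in the P group. With an SD of 0.89 Ttr ranked 5 of 31042 probe sets by spread, after Cga, Lysmd4, a probe set with no single gene name, and Slc13a4. The mean level of Ttr, 8.06, lay at percentile 65.8. Of the 6333 probe sets within 0.5 of that level, 454 varied.

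**Figure D1:**
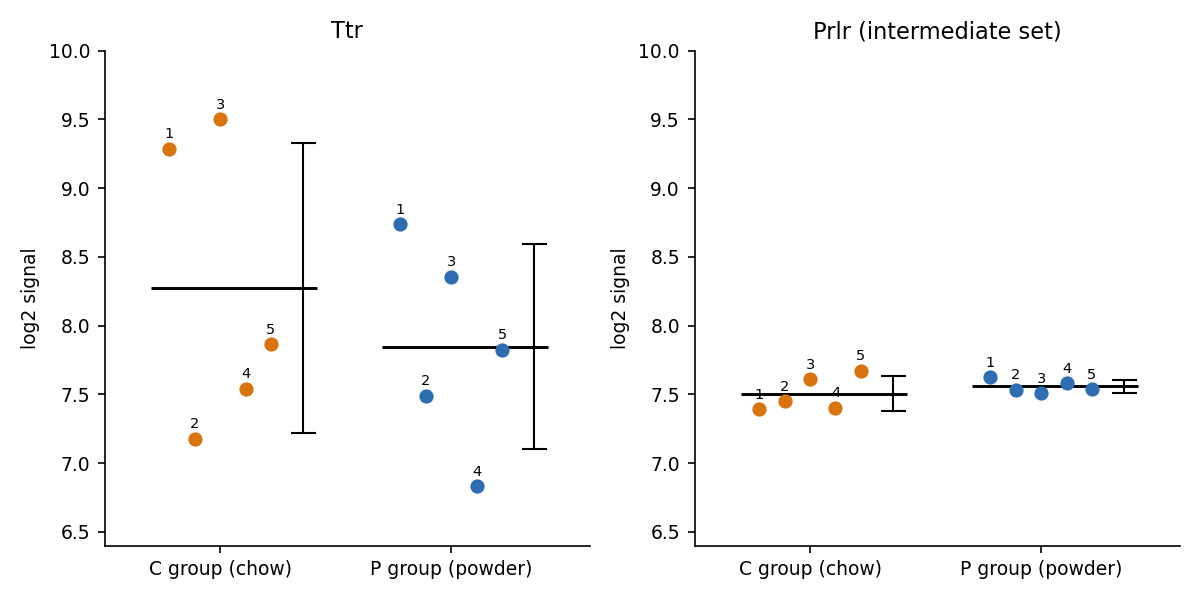
Log2 signal of Ttr and of the intermediate Prlr probe set in each rat, C rats at the left and P rats at the right. A line gives the mean of each diet and a bar 1 SD (5 rats each). Ttr spans 6.83 to 9.50 with both diets mixed, and Prlr spans 7.39 to 7.67.

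Between diets, Ttr averaged 8.28 ± 1.05 in the C group, against 7.85 ± 0.74 in the P group (SD, n = 5 each). The difference of the C group minus the P group was 0.43 (SE 0.56), smaller than the SD within either diet, and 2 of 5 C rats were above every P rat. Rank products, the test named in the study's methods, called Ttr higher in the C group at a false discovery rate (FDR) of 0.00176. By this rule 292 probe sets (0.941%) were called higher and 254 (0.818%) lower in the C group. Ttr was thus 1 of 12 probe sets of the choroid plexus genes called higher, and 0 were called lower. Limma, which weighs the difference by the spread between rats, did not pass Ttr (unadjusted p = 0.463, adjusted p = 0.9995 over all probe sets), and an exact two-sided permutation test gave p = 0.468, where 0.00794 is the smallest that 5 against 5 rats allow. Limma called 0 of 31042 probe sets (0%), with 1100 (3.54%) at an unadjusted p below 0.05. Rank products rank the fold changes of single pairs of rats without regard to the spread of a probe set. Without Chow 1, and likewise without Chow 3, they called Ttr both higher and lower in the C group. Among the varying probe sets alone they did not call Ttr (FDR 0.308). The Ttr difference was 0.12 without Chow 3, 0.17 without Chow 1, 0.17 without Powder 4, 0.65 without Powder 1 and 0.70 without Chow 2.

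The other genes were flat or nearly so. Kl, the klotho gene, whose product is a coreceptor of a phosphate-regulating growth factor, was flat at a mean of 6.29, and Folr1, the folate receptor that carries folate into the cerebrospinal fluid, was flat at 7.36. Kcnj13, an inwardly rectifying potassium channel, was flat at 6.59, and Sostdc1, a secreted antagonist of BMP and Wnt signals, at 6.61. Both probe sets of Otx2, a homeodomain transcription factor needed to form the choroid plexus, were flat at 6.66 and 6.54, as were both of Aqp1, the water channel, at 6.50 and 7.40. Thus 10 of 12 probe sets (83.3%) were flat, beside 92.6% of the whole array, and all probe sets of 6 genes were flat. The SD of the flat ones lay between 0.00011 and 0.00042. Their mean levels lay between percentiles 11.1 and 50.8 of the array. The C group minus P group difference of a flat probe set was at most 0.00019 in size, and 0 of the 11 probe sets other than Ttr had an unadjusted limma p below 0.05.

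**Figure D2:**
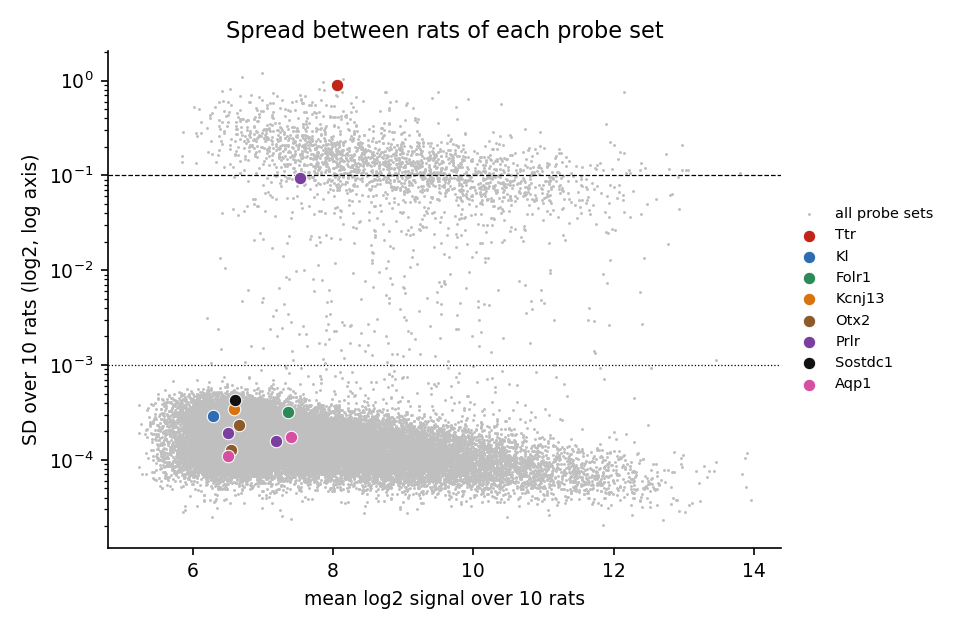
SD over 10 rats (log axis) against mean log2 signal for all 31042 probe sets and the 12 probe sets of choroid plexus genes (coloured). The dotted line marks an SD of 0.001 and the dashed line 0.1. Ttr lies near the top, 1 Prlr probe set just under the dashed line, and the remaining 10 among the flat bulk.

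Prlr, the prolactin receptor gene, had 3 probe sets, of which 2 were flat (means 7.19 and 6.51). The remaining one, with a mean of 7.53, had an SD of 0.095, just short of the limit for varying. It read 7.39, 7.45, 7.61, 7.40 and 7.67 in the C group, against 7.63, 7.53, 7.51, 7.58 and 7.54 in the P group. The C rats spread more widely (SD 0.13) than the P rats (SD 0.05), and the groups overlapped. The difference was -0.05 (SE 0.06, limma adjusted p = 0.9995), and rank products did not call it (FDR 0.0873), though without Chow 3, and likewise without Chow 5, the call was lower in C rats. Chow 1, next to the highest rat in Ttr, was the lowest in this Prlr set. Its Pearson correlation with Ttr was 0.06 (permutation p = 0.859) and the Spearman correlation 0.15 (permutation p = 0.684, 10 rats), and the Pearson value was 0.34 without Chow 3 and Chow 1, the rats farthest from the median of Ttr.

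Whether Ttr followed the other genes of the set between rats could thus not be tested on a varying partner, since 0 of these 7 genes varied. Varying genes from outside the set that are listed for the choroid plexus are compared with Ttr further below. Flat probe sets keep small deviations between arrays in the deposited decimals, and these were set against Ttr as a description. Their unit below is 0.001 on the log2 scale. Sostdc1 deviated from its mean by 0.683, -0.562, 0.185, -0.600 and 0.122 in the C group, against 0.378, 0.0483, 0.290, -0.424 and -0.120 in the P group. The rats highest in Ttr (Chow 3, Chow 1, Powder 1 and Powder 3) were also the highest in Sostdc1, and the rats lowest in Ttr (Powder 4 and Chow 2) were among the 3 lowest. Over 10 rats the Pearson correlation was 0.81 (permutation p = 0.00530) and the Spearman correlation 0.82 (permutation p = 0.00603). It did not pass adjustment over the 31041 other probe sets (permutation test, adjusted p = 0.999 and 1), and of all flat probe sets 38 (0.132%) had a correlation at least as high. It was 0.83 without Chow 3 and Chow 1, and 0.87 when deviations from the diet means were correlated (permutation p = 0.00768). The deviations are far smaller than the spread of the array medians, which was 0.012 on the log2 scale, and the correlation was 0.0048 after quantile normalization and turned to -0.16 after centring each array on its median. Centring puts mainly the medians into such flat values, so the -0.16 does not show whether the correlation of 0.81 holds.

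Aqp1 came next. Its probe set with the mean of 6.50 deviated by 0.0641, -0.0439, 0.0613, 0.0464 and 0.0944 in the C group, against 0.147, -0.124, -0.0616, -0.216 and 0.0323 in the P group, in the same unit. Powder 4, the lowest in Ttr, was the lowest here as well. The Pearson correlation with Ttr was 0.65 (permutation p = 0.0422) and the Spearman correlation 0.71 (permutation p = 0.0270). Neither passed adjustment over all probe sets (adjusted p = 0.999 and 1), which a lone probe set could not pass. The Pearson value was 0.71 without Chow 3 and Chow 1, and turned to -0.22 after median centring. The other Aqp1 probe set correlated at 0.42 (permutation p = 0.222, Spearman 0.32, p = 0.367). Kcnj13 correlated at 0.49 (permutation p = 0.150, Spearman 0.24, p = 0.513), with Chow 3 at 0.705 the highest Kcnj13 deviation. Without Chow 3 and Chow 1 the correlation of Kcnj13 was 0.12.

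The remaining flat probe sets scattered on both sides of 0. Kl correlated with Ttr at 0.35 (permutation p = 0.315, Spearman 0.41, p = 0.252), and Folr1 at -0.11 (permutation p = 0.758, Spearman -0.22, p = 0.538). The flat Prlr sets gave 0.40 and 0.21 (permutation p = 0.259 and 0.560, Spearman 0.48 and 0.30, p = 0.165 and 0.407), and the Otx2 sets -0.07 and 0.02 (permutation p = 0.848 and 0.954, Spearman -0.07 and 0.02, p = 0.866 and 0.973). Without Chow 3 and Chow 1 the Pearson values were 0.52 for Kl, -0.02 for Folr1, 0.62 and 0.66 for Prlr, 0.40 and -0.35 for Otx2 and 0.57 for the other Aqp1 set. Among the 11 probe sets other than Ttr, 9 correlated above 0 with a median of 0.35, and 2 had an unadjusted p below 0.05. Over all other probe sets the median was -0.0044 and 3.91% had an unadjusted p below 0.05, and of all flat probe sets 49.5% correlated above 0. The direction of the count turned with the scaling: 10 of the 11 were below 0 after median centring (median -0.22) and 9 of 11 after quantile normalization (median -0.16). Median centring subtracts array medians that spread over 0.012, far more than a flat probe set varied. Flat sets then mainly carry the medians, so the turn under this setting cannot show whether the deposited correlations hold. The 11 probe sets share their arrays, and several belong to the same gene, so that their values are not independent.

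**Figure D3:**
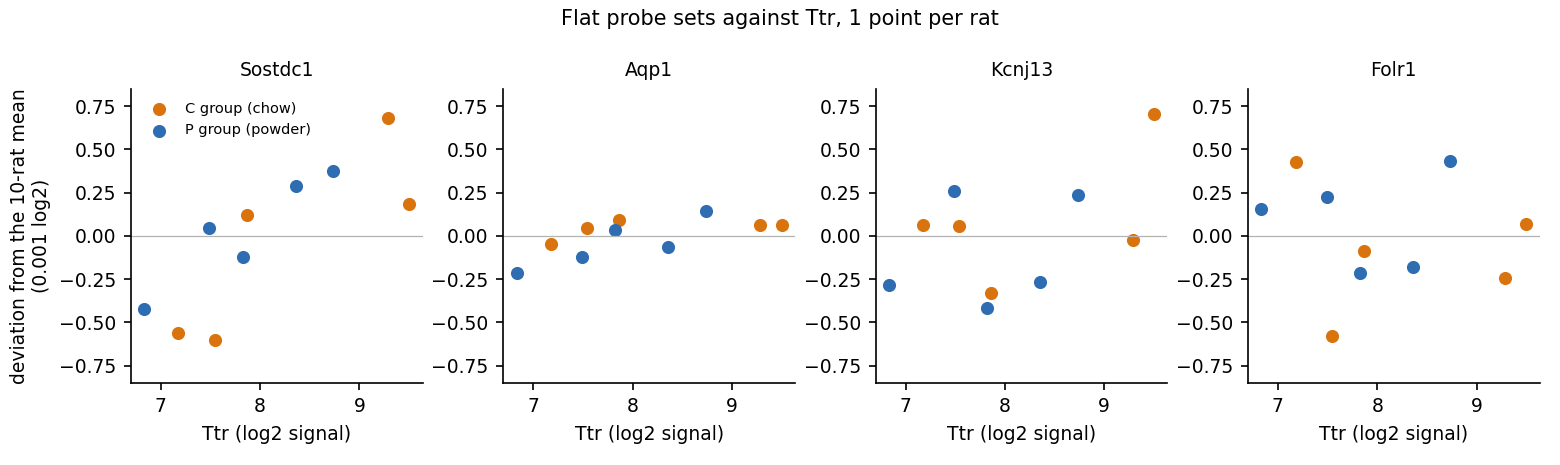
Deviation of 4 flat probe sets from their mean over 10 rats, in 0.001 of a log2 unit, against the log2 signal of Ttr, 1 point per rat, C group and P group in different colours. The Pearson correlation is 0.81 for Sostdc1, 0.65 for Aqp1, 0.49 for Kcnj13, where Chow 3 stands apart, and -0.11 for Folr1.

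Probe sets of the same gene show how far such deviations are shared within a gene. The Otx2 sets correlated with each other at -0.59 (permutation p = 0.0759, Spearman -0.45, p = 0.191). The value was -0.24 without Powder 4 and Chow 3, the rats farthest from the median of the Otx2 set with a mean of 6.66. The Aqp1 sets correlated at 0.61 (permutation p = 0.0576, Spearman 0.49, p = 0.155). Without Powder 4 and Powder 2, the rats farthest from the median of the Aqp1 set with a mean of 6.50, they correlated at 0.11. The Prlr sets correlated at 0.37, 0.62 and 0.74 (permutation p = 0.302, 0.0545 and 0.0142, Spearman 0.36, 0.33 and 0.67, p = 0.313, 0.348 and 0.0391), the last between the intermediate set and the flat set with a mean of 6.51. The pairs holding the Prlr set with a mean of 7.19 gave 0.33 and 0.30 without Chow 5 and Powder 4, its farthest rats. The last pair gave 0.58 without Chow 1 and Chow 5, the rats farthest from the median of the intermediate set. No adjustment was made over these pairs. Across the array, 8312 pairs of flat probe sets of 1 gene had a median correlation of 0.20, and 66.9% were above 0, while 138 pairs of varying probe sets had a median of 0.94.

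The promoter of Ttr, the varying gene, and that of Kcnj13, a flat one, are shown because Otx2, itself one of the genes, is a homeodomain factor whose family binds the letters TAATCC. The promoters, 250 bases before to 50 after the annotated start, are from RefSeq (build GRCr8), at chr18:12218508-12218807 on the plus strand for Ttr and chr9:95518937-95519236 on the minus strand for Kcnj13. Capitals mark TAAT, the core that many homeodomain proteins share, on either strand (TAAT or ATTA).
Ttr: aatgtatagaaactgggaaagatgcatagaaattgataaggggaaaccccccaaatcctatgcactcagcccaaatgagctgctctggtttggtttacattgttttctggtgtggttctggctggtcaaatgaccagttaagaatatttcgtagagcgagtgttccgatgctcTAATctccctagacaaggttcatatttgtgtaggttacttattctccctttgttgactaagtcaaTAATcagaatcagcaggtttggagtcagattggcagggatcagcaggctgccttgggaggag
Kcnj13: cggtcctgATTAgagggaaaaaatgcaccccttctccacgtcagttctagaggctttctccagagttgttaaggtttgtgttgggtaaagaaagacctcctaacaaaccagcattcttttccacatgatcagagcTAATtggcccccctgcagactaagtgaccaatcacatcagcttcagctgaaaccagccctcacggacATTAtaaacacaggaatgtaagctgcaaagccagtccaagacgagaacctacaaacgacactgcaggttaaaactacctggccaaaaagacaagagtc
Ttr held 2 such cores and Kcnj13 held 3, and 4 of the 7 promoters given for 6 of the genes held at least 1, beside 60.6% of all 33469 promoters. TAATCC, searched on both strands and overlapping TAAT, was in 0 of the 7, beside 7.17% of all promoters. These matches describe letters only.

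Some other genes listed for the choroid plexus varied between rats, but in another order of rats than Ttr. Of 40 further genes listed for this tissue 36 were on the array, with 53 probe sets, of which 40 were flat and 11, of 7 genes, varied. Among the 27 genes with flat probe sets alone were the channel genes Kcne2 and Trpv4 and the tight junction gene Cldn2. Slc13a4, a sodium-coupled sulfate carrier that is also found in the leptomeninges, the membranes around the brain, read 9.36, 7.40, 7.01, 9.06 and 7.25 in the C group, against 6.68, 8.54, 8.73, 7.03 and 7.54 in the P group. It was thus high in Chow 1, Chow 4, Powder 2 and Powder 3, whereas Chow 3, the highest rat in Ttr, was among the low ones. Bmp6, a bone morphogenetic protein gene, read in the brighter of its varying probe sets 8.74, 7.57, 7.50, 8.28 and 7.60 in the C group, against 7.36, 7.95, 8.16, 7.32 and 7.56 in the P group. Cp, the copper-carrying ferroxidase ceruloplasmin, read in the brightest of its varying probe sets 8.66, 7.86, 7.79, 8.37 and 7.97 in the C group, against 7.63, 8.14, 8.27, 7.59 and 7.84 in the P group. Both were highest in the same 4 rats as Slc13a4. Which cells gave these signals was not tested, and all 3 genes followed leptomeningeal genes, as given next. Their order of rats need not be that of the choroid plexus epithelium.

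The mean of 18 genes of leptomeningeal cells, among them the collagen genes Col1a1 and Col3a1 and the prostaglandin synthase gene Ptgds, stood at 0.80, -0.22, -0.40, 0.65 and -0.21 in the C group, against -0.65, 0.23, 0.42, -0.40 and -0.21 in the P group, as the log2 deviation from each gene's mean over 10 rats. Against this mean Slc13a4 correlated at 0.99 (permutation p = 1e-05, the smallest that 100000 permutations give, adjusted p = 0.000278 over the 1391 varying probe sets), with a Spearman correlation of 0.96 (permutation p = 7e-05), and the Pearson value was 0.99 without Chow 1 and Chow 4, the rats farthest from the median of this mean. Bmp6 correlated at 0.97 by both probe sets (permutation test, adjusted p = 0.00042 and 0.00067), Cp at 0.98, 0.97 and 0.82 (adjusted p = 0.00042, 0.00042 and 0.030) and Ecrg4, the precursor of the secreted peptide augurin, at 0.94 (adjusted p = 0.00042). Slc22a8, an organic anion carrier, correlated at 0.95 and 0.86 (permutation test, adjusted p = 0.00122 and 0.0131). By Spearman these were 0.95 and 0.92 for Bmp6, 0.93, 0.95 and 0.75 for Cp, 0.95 for Ecrg4 and 0.81 and 0.82 for Slc22a8, of which the last Cp set and both Slc22a8 sets did not pass (adjusted p = 0.115, 0.0588 and 0.05004). The other varying genes of the list did not follow this mean, Pcp4l1 at -0.30 (permutation test, adjusted p = 0.774, Spearman -0.31) and Enpp2 at 0.16 (adjusted p = 0.879, Spearman 0.15). Ttr correlated with it at 0.10 (permutation p = 0.779, adjusted p = 0.917) and by Spearman at 0.01 (permutation p = 1), and at -0.18 without Chow 1 and Chow 4. Within the 6 rats below 0 in this mean the correlation was 0.95 for Slc13a4 (exact permutation p = 0.00972), 0.87 for Ecrg4 (exact p = 0.025), 0.80 and 0.70 for Bmp6 (exact p = 0.0375 and 0.119), 0.82, 0.79 and 0.50 for Cp (exact p = 0.0472, 0.0472 and 0.335), 0.47 and 0.62 for Slc22a8 (exact p = 0.310 and 0.181), 0.16 for Enpp2 (exact p = 0.761), 0.0078 for Pcp4l1 (exact p = 0.988) and -0.46 for Ttr (exact p = 0.394), unadjusted. These 6 rats were picked by the values of the mean itself, so their correlations are a description only. The difference between the correlations of Ttr and of the other genes was not tested. Of all varying probe sets 232 (16.7%) correlated with the leptomeningeal mean at an adjusted p below 0.05. Both this share and the adjustment include the 23 varying probe sets that make up the mean. The choroid plexus and leptomeningeal lists were chosen with earlier results of these data known. The p-values against this mean are therefore a description and not independent support.

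**Figure D4:**
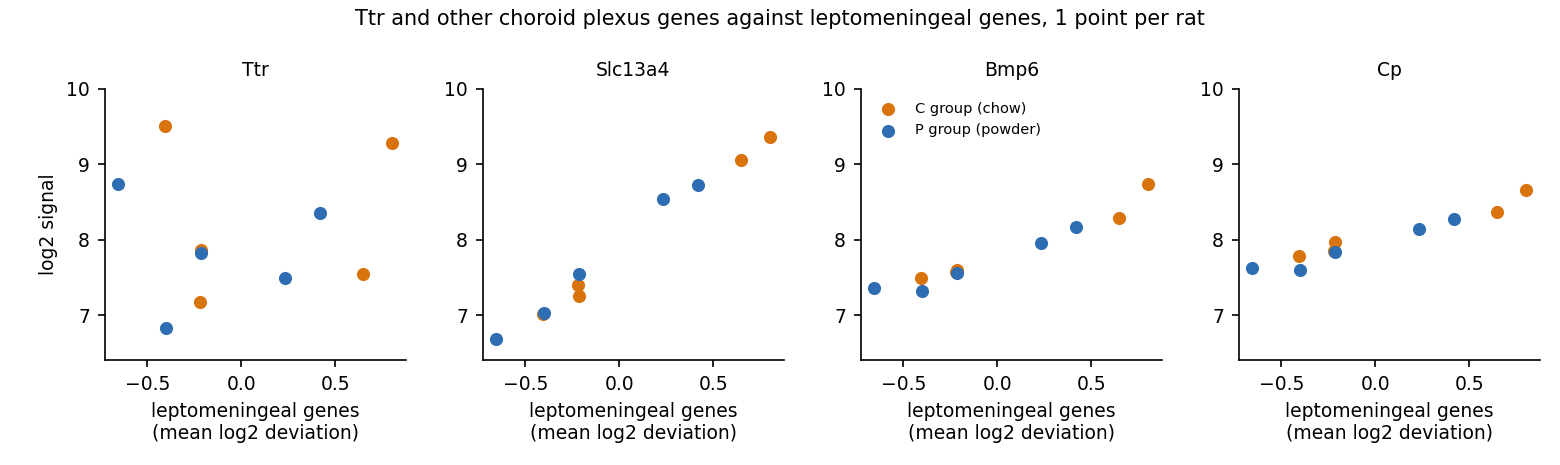
Log2 signal of Ttr, Slc13a4, Bmp6 and Cp against the mean log2 deviation of 18 leptomeningeal genes, 1 point per rat, C group and P group in different colours. The correlations are 0.10 for Ttr, 0.99 for Slc13a4, 0.97 for Bmp6 and 0.97 for Cp.

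Between diets, 4 of these 36 further genes (Slc13a4, Ecrg4, Bmp6 and Cp) passed rank products as higher in the C group and 1, Pcp4l1, as lower, beside 0.941% and 0.818% of all probe sets (7 and 1 of the 53 probe sets here). Slc13a4 was higher by 0.31 (SE 0.62), Bmp6 by 0.27 (SE 0.29), Cp by 0.24 (SE 0.21) and Ecrg4 by 0.20 (SE 0.14), and Pcp4l1 differed by -0.13 (SE 0.05). Limma called 0 of the 53 probe sets at an adjusted p below 0.05, and Pcp4l1 had an unadjusted p of 0.0383. The count of genes called higher was 0 without Chow 1 and Chow 4, 1 without Chow 1, 2 without Chow 4 and 0 among varying probe sets alone. Pcp4l1 was not called without Powder 2, without Powder 5 or among varying probe sets alone. Chow 1 and Chow 4 were the highest rats in the leptomeningeal mean, 17 of its 18 genes passed the same rule as higher in C rats and 0 as lower, and the part of these cells in the differences was not tested. The leptomeningeal count was 5 higher and 1 lower without Chow 1, 6 and 1 without Chow 4, 9 and 0 without Powder 1, 0 and 9 without both Chow 1 and Chow 4, 12 and 8 with the replicate number as a block, and 0 and 0 among varying probe sets alone. Enpp2, which makes lysophosphatidic acid, averaged 11.31 ± 0.20 in the C group, against 11.32 ± 0.12 in the P group (SD, n = 5 each), and was not called. It correlated with Ttr at -0.32 (permutation p = 0.377, Spearman -0.44, p = 0.206), and at -0.36 without Chow 3 and Chow 1.

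Correlations of Ttr with the listed genes did not pass adjustment. Over the 11 varying probe sets of further choroid plexus genes they lay between -0.32 and 0.35 with a median of 0.20, and over the 23 of leptomeningeal genes between -0.08 and 0.39 with a median of 0.11. For ependymal genes, which mark the ciliated lining of the ventricles, the range was -0.22 for Tmem212 to 0.10 for Rarres2 over 5 probe sets. For the erythrocyte genes Hbb and Alas2 the values were 0.45 and 0.27, but -0.43 and -0.62 without Chow 3 and Chow 1. Cga and Tshb, hormone subunits of the pars tuberalis, gave -0.23 and -0.17 over all rats. The varying tanycyte genes gave -0.55 for Scn7a and 0.13 for Vim, while 4 of the 6 measured tanycyte genes were flat in all probe sets. Vim and the ependymal gene Rarres2 were highest in Chow 1, Chow 4, Powder 3 and Powder 2, the highest rats in the leptomeningeal mean. Peptide genes of the hypothalamus lay between -0.55 for Pmch and 0.60 for Npy. The median over all 1390 other varying probe sets was 0.01. In these lists 0 probe sets had an unadjusted permutation p below 0.05 for the Pearson correlation, and the smallest adjusted p was 0.795. By Spearman the highest was again Npy at 0.82 (permutation p = 0.00589, adjusted p = 0.759), whose Pearson value was 0.46 without Chow 3 and Chow 1. The 8 measured endothelial genes had 0 varying probe sets.

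**Figure D5:**
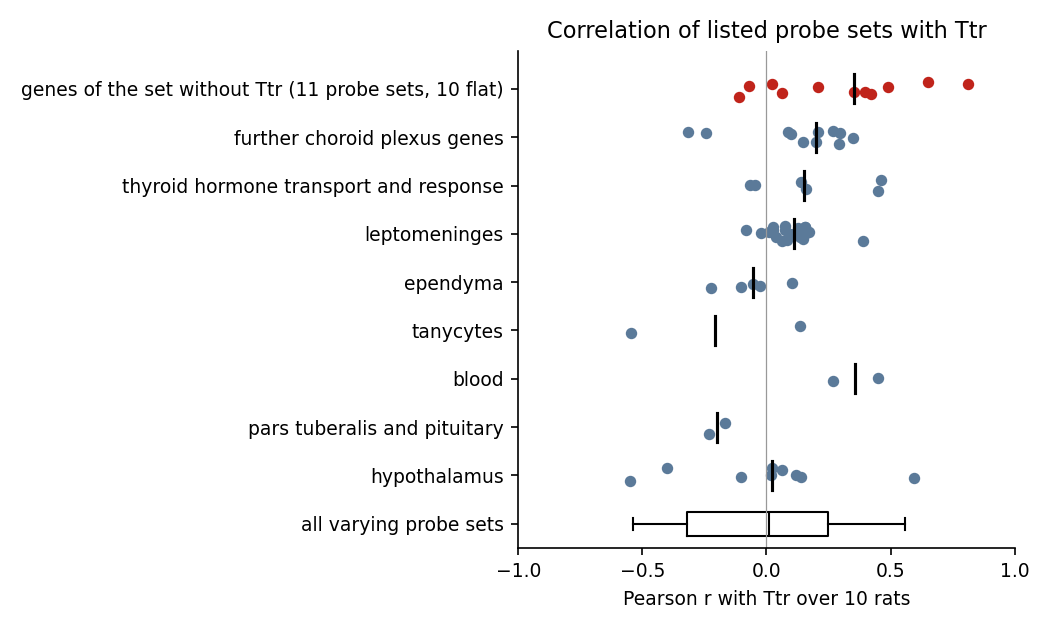
Pearson correlation with Ttr over 10 rats for the 11 other probe sets of choroid plexus genes and for varying probe sets of further lists, 1 point per probe set, with black ticks at list medians. The box shows the quartiles of all 1390 other varying probe sets, with whiskers from percentile 5 to percentile 95. The list medians include 0.35 for the choroid plexus genes, 0.20 for further genes of this tissue and 0.11 for leptomeningeal genes. Of the 11 probe sets 10 were flat, while the other lists and the box hold varying ones only, so these medians are not like measures.

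Of 14 listed genes that handle thyroid hormone and retinol, the cargo of transthyretin, 13 were on the array, and 6 were flat in all their probe sets, among them the deiodinase genes Dio2 and Dio3, which activate and inactivate the hormone, and the receptor genes Thra and Thrb. Rbp4, the retinol carrier that binds transthyretin, read 9.22, 7.92, 7.86, 8.75 and 7.97 in the C group, against 7.69, 8.64, 8.83, 7.97 and 8.02 in the P group. Its 4 highest rats were those of the leptomeningeal mean, and Rbp4 correlated with Ttr at 0.16 (permutation p = 0.656, Spearman -0.04, p = 0.918), and at -0.01 without Chow 3 and Chow 1. Stra6, the membrane receptor of that carrier, read in the brighter of its varying probe sets 6.84, 6.74, 7.30, 7.52 and 7.60 in the C group, against 7.01, 6.80, 6.92, 7.30 and 6.89 in the P group. Both of its varying probe sets passed rank products as higher in C rats, this one by 0.22 (SE 0.19), limma passed neither (adjusted p = 0.9995), and neither rank product call held without Chow 4 or without Chow 5. Trh, the thyrotropin-releasing hormone gene, and Trhr, its receptor gene, were called lower at -0.09 (SE 0.08) and -0.08 (SE 0.06), and limma passed neither (adjusted p = 0.9995). Both calls were lost without Chow 2, and likewise without Powder 1, 2, 3 or 5. Crym, a thyroid hormone-binding crystallin gene, correlated with Ttr at 0.46 (permutation p = 0.178, Spearman 0.25, p = 0.490), at 0.15 without Chow 1 and at -0.16 without Chow 3 and Chow 1, and was not called between diets.

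Among varying probe sets that name a single gene, those most like Ttr over the 10 rats were Myo5b (Pearson correlation 0.78), Syt12 (0.73), Celf5 (0.70), Drd1 (0.70), Rgs16 (0.69), Tiam1 (0.69), Rasgrp1 (0.69), Lpl (0.69), Orc4 (0.69) and Rasd1 (0.68). Their Spearman correlations lay between 0.59 for Syt12 and 0.88 for Rasgrp1. Their unadjusted permutation p lay between 0.00951 for Myo5b and 0.0322 for Rasd1, none passed adjustment over the 1390 varying probe sets (adjusted p = 0.795 for each), and 5 probe sets with no single gene name correlated more highly than Myo5b, up to 0.86. Myo5b, a myosin motor of membrane traffic, read 7.97, 7.61, 7.85, 7.58 and 7.86 in the C group, against 7.92, 7.75, 7.75, 7.69 and 7.79 in the P group. Its range was 0.39 on the log2 scale, against 2.67 for Ttr. Of the 10 genes 8 were highest in Chow 1. Without Chow 3 and Chow 1 the correlation of Myo5b was 0.71, that of Rasgrp1 0.78 and that of Celf5 0.47. Most opposed were Asah2, a ceramidase gene (-0.77), Nefh, the heavy neurofilament gene (-0.75), and Kif1c, a kinesin motor gene (-0.74). By the Pearson correlation 64 of 1390 varying probe sets (4.6%) had an unadjusted permutation p below 0.05 with Ttr and 0 (0%) passed adjustment, and by the Spearman correlation 0 passed as well.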

How the data were processed

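Hypothalamic total RNA of 10 rats, extracted with TRIzol and purified with an RNeasy kit, was read on 1 array per rat. The authors summarized and normalized the arrays by the FARMS method, a factor analysis of the probes in a set, under R 2.7.2, and deposited log2 values. The settings of this summarization are not given in the sources used here. The deposited values were used unchanged. Of 31099 rows 57 hybridization controls were left out. The platform annotation names a single gene for 20826 probe sets, several for 436 and none for 9780. The number of arrays limits the precision. The labels do not say whether rats shared a cage or litter.

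Rank products compared each C rat with each P rat (25 pairs) using 100 permutations within arrays, called at an FDR below 0.05 (Python 3.11.15, numpy 2.4.6, pandas 2.3.3). Limma 3.58.1 in R 4.3.3 gave moderated tests with Benjamini-Hochberg adjustment over 31042 probe sets. The exact test used all 252 assignments. Correlations used 100000 permutations of the rats, fewer under most alternatives, and were adjusted over varying or all probe sets. The scripts were tested on simulated data. Named genes were all members, genes of the lists, the 10 varying genes most like Ttr and the 3 most opposed. The members and lists were chosen with earlier results of these data known. Alternatives were quantile normalization, median centring, filters on level and spread, an FDR of 0.01, each rat left out, a replicate block, other limma variance models, linear values and deviations from diet means. Chosen after seeing the data were correlations over all probe sets, a limit of 0.05 on the SD, leaving out Chow 1 with Chow 4, and the TAAT search. Correlations with the leptomeningeal mean, also within the rats below 0 in it, were not in the plan. Drawings were made with matplotlib 3.10.9.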

Additional observations from a re-analysis of the deposited data

Results flagged for a closer look

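In groups of 5 rats, a rat was singled out when its gap to the next exceeded Dixon's critical share of the range, which chance alone passes in about 1 of 20 groups. Many groups were searched and no adjustment was made over them, so rats singled out here can be there by chance. Rasgrp1, among the genes most like Ttr, stood at 6.96 in Chow 1, while its values in the other C rats lay between 6.62 and 6.68. Rasd1, another of them, stood at 7.89 in Chow 2, while its values in the other C rats lay between 8.30 and 8.45. The dimmest Cp probe set stood at 6.96 in Powder 3, while its values in the other P rats lay between 6.49 and 6.61. The ependymal gene Tmem212 stood in its dimmer probe set at 6.46 in Chow 1, while its values in the other C rats lay between 7.01 and 7.12. Scn7a stood at 8.02 in Powder 1, while its values in the other P rats lay between 8.37 and 8.45. Pmch stood at 13.15 in Powder 4, while its values in the other P rats lay between 13.04 and 13.07.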

How the results depend on the processing

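The mean of Ttr stayed higher in the C group by 0.12 to 0.70 with 1 rat left out, and by 0.33 without Chow 1 and Chow 4. Filters on probe sets and the replicate block cannot change this difference. The 2 scalings left it at 0.43. Rank products called Ttr higher in 15 of the 16 alternatives, but in 2 of these, without Chow 1 and without Chow 3, also lower. Among probe sets with an SD above 0.1 the difference of 0.43 was not called. Rank product calls numbered 119 to 355 higher and 120 to 327 lower with 1 rat left out, moving by over 1.5 times without Chow 1 (119), Chow 4 (158) and Powder 1 (175) for higher calls, and for lower calls by leaving out Powder 1 (137), Powder 2 (128), Powder 4 (157) or Powder 5 (120). They numbered 125 higher and 97 lower with a mean level above the median, 1 and 4 with an SD above 0.1, 93 and 99 at an FDR below 0.01, 0 and 0 by limma, and 49 higher without Chow 1 and Chow 4. The cause was not tested. Limma called 0 or 1 probe sets with 1 rat left out, the 1 without Powder 4. With a limit of 0.05 on the SD, 2 probe sets of choroid plexus genes varied. The count of varying probe sets following Ttr was 0 under all 18 alternatives, most of which used fewer permutations. In most of them a lone probe set could not pass adjustment even at the smallest p possible. These counts therefore cannot show that no single probe set followed Ttr.

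The labels number the rats of both diets 1 to 5, but same-numbered rats deviated together at -0.35 to 0.26 and share only a number. With the replicate number as a block, the Ttr difference was 0.43 (SE 0.24, limma adjusted p = 0.995), rank products called 207 probe sets higher and 325 lower, Ttr among the higher ones, and limma called 0.

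Correlations of flat probe sets with Ttr turned with the scaling. The array medians spread over 0.012, more than the range of any flat member (at most 0.0013). After median centring flat sets mainly carry these medians, so this setting cannot show whether the deposited correlations hold. With median centring the correlations were -0.21 for Kl, -0.20 for Kcnj13, -0.24 for Otx2 (the set with a mean of 6.54), -0.22 and -0.23 for the flat Prlr sets, -0.16 for Sostdc1 and -0.22 and -0.22 for Aqp1. With quantile normalization they were -0.10 for Kl, -0.016 for Kcnj13, -0.17 for the same Otx2 set, -0.16 and -0.21 for the flat Prlr sets and -0.15 and -0.16 for Aqp1, and Sostdc1 was at 0.0048. Without Chow 3 and Chow 1, the Otx2 sets turned to 0.40 (mean 6.66) and -0.35 (mean 6.54). With 1 rat left out the correlation ranged from -0.32 to 0.062 for Folr1, from -0.61 to 0.23 (mean 6.66) and -0.30 to 0.24 (mean 6.54) for Otx2, from -0.13 to 0.42 for the intermediate Prlr set, and from 0.75 to 0.89 for Sostdc1.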
